A study of Mus musculus with 21 samples.

Results

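Mesoderm of day 4 mouse embryoid bodies was sorted on the receptors PDGFRalpha and FLK1, and the wildtype (WT) cells that carried FLK1 without PDGFRalpha are set here against the WT cells that carried both. The PDGFRalpha-FLK1+ cells are called SP and the PDGFRalpha+FLK1+ cells DP. The comparison holds 6 of the 21 libraries of the series, 3 of WT SP and 3 of WT DP cells, taken by their labels and not by any measured value. Both groups came from embryonic stem cells of the line A2lox.Cre, labelled wildtype, for which no treatment is given, and both shared the serum-containing differentiation medium of the study. Before differentiation all lines of the study had been kept on irradiated mouse embryonic fibroblast feeders and then on gelatin without feeders. Another 3 libraries were SP cells of a line with doxycycline-inducible Etv2 (iEtv2) that received 2 µg/ml doxycycline from day 2.5. They entered the filter on low counts, the scaling and the estimate of the spread, but not the difference between WT SP and WT DP cells itself. The last 12 libraries came from a line carrying T-GFP and Etv2-tdTomato reporters (TGET). In that line SP and DP cells of day 4 were each divided into tdTomato-positive and tdTomato-negative cells, with 3 libraries per group. The labels do not say whether replicates were separate cultures, so p-values measure the spread between these libraries, which may be technical.

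FLK1, encoded by Kdr, is the main VEGF receptor of early vascular cells and marks mesoderm from which endothelium, blood, heart and smooth muscle can form. PDGFRalpha, encoded by Pdgfra, is carried by nascent, paraxial and cardiac mesoderm and is lost from cells that enter the blood and endothelial lineages. Etv2 is an ETS transcription factor needed for both of those lineages, and T (brachyury) marks the primitive streak and nascent mesoderm.

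The sorted receptors checked the labels at the RNA level. Pdgfra (ENSMUSG00000029231, mm10 chromosome 5, 75152292 to 75198215, plus strand) stood at 31, 44.6 and 44.3 CPM (counts scaled to a common library size, with TMM correction for composition) in the WT SP libraries, against 257, 308 and 391 CPM in the WT DP libraries. All SP values lay far below all DP values, at a log2 fold change of -2.99 ± 0.29 (SE, n = 3 each). The adjusted p was 9.95e-05 in edgeR's quasi-likelihood test with Benjamini-Hochberg adjustment. SEs and p-values for WT SP over DP cells rest on a spread that includes the 3 iEtv2 libraries, unless a fit of the 6 WT libraries alone is named. Kdr (ENSMUSG00000062960, mm10 chromosome 5, 75932827 to 75978458, minus strand), required by both gates, stood at 831, 887 and 958 CPM in SP cells and at 730, 861 and 1016 CPM in DP cells. The groups overlapped, and the difference of 0.04 ± 0.14 on the log2 scale did not pass the test (edgeR, adjusted p = 0.905). These values go with the labels of all 6 libraries, and in bulk RNA fewer cells of a type and less RNA per cell cannot be told apart, here and in every result that follows.

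Etv2 was present on both sides of the gate and higher in SP cells. Its level (ENSMUSG00000006311, mm10 chromosome 7, 30633616 to 30635852, minus strand) was 89, 73.9 and 118 CPM in the SP libraries against 53, 49.5 and 58.2 CPM in the DP libraries, without overlap. The increase was 1.75-fold, a log2 fold change of 0.80 ± 0.14 (edgeR, adjusted p = 0.00331). T did not follow the gate, at 159, 227 and 220 CPM in SP cells and 150, 240 and 179 CPM in DP cells, with an adjusted p of 0.887 in edgeR's test. The panels of levels per library show these genes beside some of the strongest changes.

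**Figure D1:**
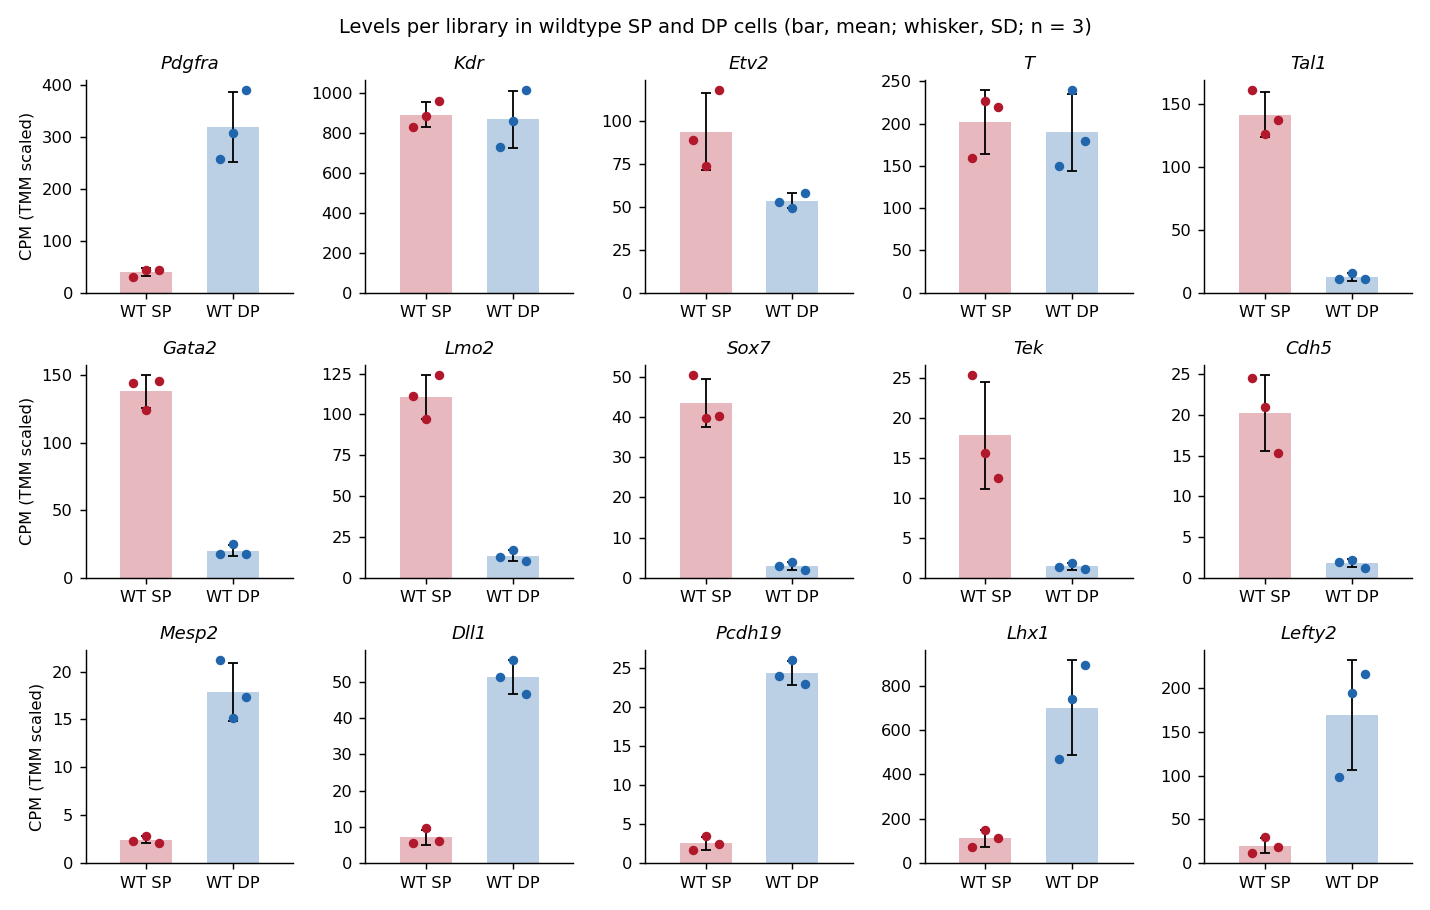
Levels of 15 genes in the 3 WT SP libraries (red, left) and the 3 WT DP libraries (blue, right), in CPM on linear axes that start at 0 and differ between panels; bars are means, whiskers are SDs and dots are libraries. Kdr and T overlap between the gates, Etv2 is higher in SP cells, Pdgfra, Mesp2, Dll1, Pcdh19, Lhx1 and Lefty2 are lower and the remaining 6 genes are higher. Gata2 and Lmo2 were chosen for this plot after their values were seen.

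The WT libraries held 22406153 to 26548414 counts assigned to genes, and the most that a gene with 0 counts could hide, taken as 3 counts, came to 0.113 to 0.134 CPM (counting error only). Mitochondrial genes took 1.56 to 2.67% of the counts in SP libraries and 1.95 to 2.21% in DP libraries. Ribosomal RNA took 0.682% in WT DP replicate 1, which stood apart from the other 5 WT libraries at 1.4 to 2.28%. No library was a copy of another.

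Of 16288 genes tested, 2580 (15.8%) were called at an adjusted p below 0.05 in edgeR's quasi-likelihood test, 1479 higher (9.08%) and 1101 lower (6.76%) in SP cells. A change of at least 2-fold was reached by 550 of the genes called higher (3.38% of those tested) and 338 of those called lower (2.08%). The 3 SP and 3 DP values did not overlap for 5231 genes (32.1%). A fit of the 6 WT libraries alone, with its own filter on low counts, tested 15390 genes and called 2276. The number of WT gate calls depended on single libraries: it was 1509 without WT SP replicate 1, 1525 without WT DP replicate 3 and 2683 without WT DP replicate 1, the library of low ribosomal RNA.

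**Figure D2:**
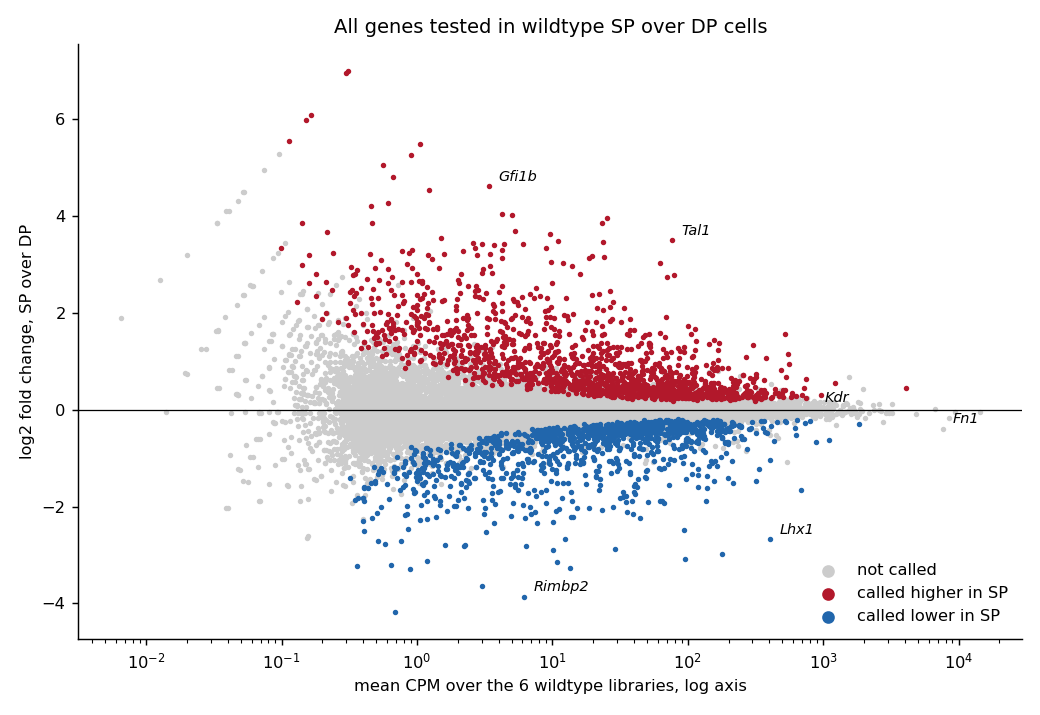
Each point is 1 of the 16288 genes tested, with its mean CPM over the 6 WT libraries on a log axis and its log2 fold change of SP over DP cells; red points were called higher in SP cells, blue points lower and grey points in neither direction. Changes past 2-fold are found from below 1 CPM up to the levels of Lhx1 and Tdgf1, and the fold changes at the far left, near the limit of 3 counts, are rough.

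Among well-measured genes the largest increases in SP cells were led by regulators of blood and endothelium. The 12 named genes were the largest among called genes with at least 5 CPM in one group and no overlap between groups. They were Gfi1b, Lyl1, Slc32a1, Hapln1, Sox7, Sox18, Tek, Tal1, Cdh5, Cbfa2t3, Myb and Esam, with log2 fold changes of 3.42 to 4.62. Gfi1b, a repressor needed for red cell and platelet precursors, stood at 10.3, 4.79 and 4.63 CPM in SP cells against 0.191, 0.337 and 0.271 CPM in DP cells. Every DP value was close to the limit of 3 counts, and the log2 fold change of 4.62 ± 0.61 (edgeR, adjusted p = 0.000603) rests on that low level. Lyl1, a basic helix-loop-helix factor of blood and endothelial cells, had 12.1, 5.59 and 6.49 CPM in SP cells and 0.534, 0.673 and 0.226 CPM in DP cells. The SP library of replicate 1 was the highest for both genes.

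Tal1, the helix-loop-helix factor without which no blood forms, was well above that limit on both sides. It reached 161, 126 and 137 CPM in SP cells, against 10.9, 15.7 and 10.6 CPM in DP cells, an 11.4-fold increase (log2 fold change 3.51 ± 0.15, edgeR, adjusted p = 1.45e-06). Cbfa2t3, a co-repressor that works with Tal1, had 56.4, 37.2 and 37.1 CPM in SP cells and 4.38, 4.71 and 2.71 CPM in DP cells. Myb, a factor of blood progenitors, averaged 11.1 ± 5.02 CPM in SP cells and 1.03 ± 0.428 CPM in DP cells (SD, n = 3 each).

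Endothelial regulators and surface proteins made up another share of the largest increases. Sox7, a SoxF transcription factor of early endothelium and blood, had 50.5, 39.9 and 40.2 CPM in SP cells against 2.97, 3.87 and 2.03 CPM in DP cells, a 14.6-fold increase (log2 fold change 3.87 ± 0.18, edgeR, adjusted p = 1.45e-06). Its relative Sox18 had 13.8, 7.04 and 8.49 CPM in SP cells and 1.07, 0.589 and 0.541 CPM in DP cells. Tek, the angiopoietin receptor TIE2, had 25.4, 15.6 and 12.5 CPM in SP cells and 1.37, 1.85 and 1.04 CPM in DP cells. Both groups were far apart for each of these genes, and SP replicate 1 was again the highest. Cdh5, the endothelial junction protein VE-cadherin, averaged 20.2 ± 4.65 CPM in SP cells and 1.78 ± 0.517 CPM in DP cells (SD, n = 3 each), an 11.3-fold increase. Esam, an adhesion molecule of endothelial junctions, averaged 8.08 ± 0.584 CPM in SP cells and 0.748 ± 0.301 CPM in DP cells, a 10.7-fold increase.

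Hapln1 and Slc32a1, which are known chiefly from other tissues, were as strongly higher. Hapln1 links hyaluronan to proteoglycans in extracellular matrix, and had 59.3, 49.2 and 34.8 CPM in SP cells against 3.09, 4.54 and 1.49 CPM in DP cells, a 15.6-fold increase. Slc32a1, the vesicular transporter of the transmitter GABA, had 12.6, 7.91 and 8.11 CPM in SP cells and 0.724, 0.715 and 0.271 CPM in DP cells. Of its exonic bases 24.9% overlap exons of an antisense gene, and the strand setting of the counting is not given in the sources used here, so reads of that partner could not be told apart.

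Of the 12 largest decreases 11 are described here: Rimbp2, Pcdh19, Pcdh8, Lefty2, Pdgfra, Mesp2, Dll1, Pappa, Lhx1, Foxc1 and S1pr5, with log2 fold changes of -3.86 to -2.52. Regulators of somite-forming (paraxial) mesoderm were prominent among them. Mesp2, a helix-loop-helix factor that sets segment borders in the presomitic mesoderm, had 2.28, 2.82 and 2.12 CPM in SP cells against 21.2, 15.2 and 17.3 CPM in DP cells. This 7.41-fold decrease was a log2 fold change of -2.89 ± 0.28 (edgeR, adjusted p = 0.000101). Dll1, the Notch ligand of the same tissue, had 5.42, 9.51 and 6.16 CPM in SP cells and 51.4, 56 and 46.6 CPM in DP cells, with 20.5% of its exonic bases under an antisense gene. Foxc1, a forkhead factor of paraxial mesoderm, averaged 3.4 ± 1.33 CPM in SP cells and 21.5 ± 2.65 CPM in DP cells (SD, n = 3 each).

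A pair of protocadherins, homophilic adhesion proteins, changed about as much. Pcdh19 had 1.69, 3.42 and 2.42 CPM in SP cells against 24, 26 and 23 CPM in DP cells, a 9.66-fold decrease. Pcdh8, the paraxial protocadherin, had 1.3, 3.04 and 2.25 CPM in SP cells against 19.2, 19.8 and 19.4 CPM in DP cells, an 8.82-fold decrease. The DP values of both genes agreed closely between libraries. Lhx1, a LIM-homeobox factor of the anterior streak and intermediate mesoderm, had 73.5, 147 and 111 CPM in SP cells and 469, 743 and 893 CPM in DP cells, which was a 6.35-fold decrease (log2 fold change -2.67 ± 0.27, edgeR, adjusted p = 0.000126). Lefty2, a secreted inhibitor of Nodal, had 11.8, 29.4 and 18.4 CPM in SP cells and 98.3, 194 and 216 CPM in DP cells. Only 88.1% of 50-base windows of its transcript were unique to it, so reads shared with a close relative could not all be placed.

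The other decreases were varied in role. Rimbp2, a scaffold of presynaptic terminals, had 0.432, 1.22 and 0.722 CPM in SP cells against 10.7, 10.6 and 13.6 CPM in DP cells, a 14.6-fold decrease and the largest of the 12. Pappa, a protease that cleaves IGF-binding proteins, averaged 1.56 ± 0.639 CPM in SP cells and 11.1 ± 1.3 CPM in DP cells. S1pr5, a receptor for sphingosine-1-phosphate, averaged 0.952 ± 0.134 CPM in SP cells and 5.5 ± 0.796 CPM in DP cells (SD, n = 3 each). All 24 largest changes were called under all 15 alternative settings.

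**Figure D3:**
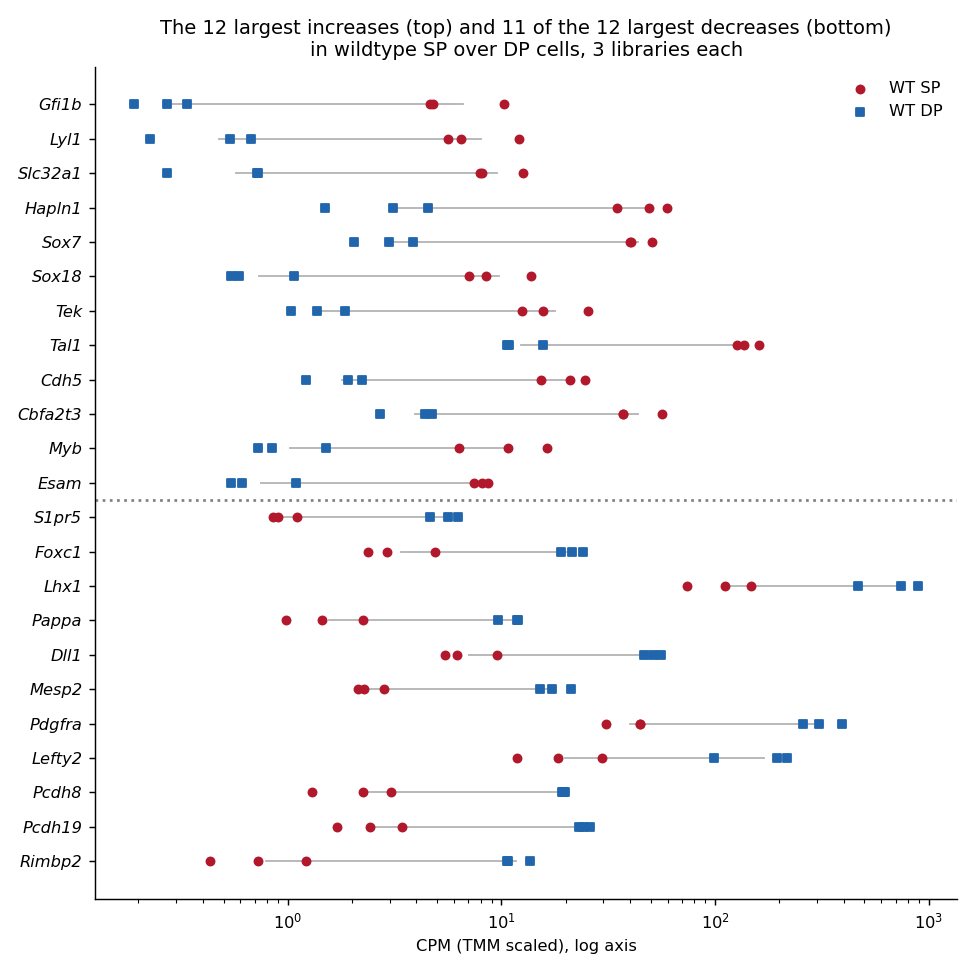
The 12 largest increases (upper rows) and 11 of the 12 largest decreases (lower rows) in WT SP over WT DP cells, with every library as a point (SP red circles, DP blue squares) in CPM on a log axis and a line between the group means. The groups do not overlap for any of these genes, which the choice of genes required, and the DP values of Gfi1b, Lyl1 and Slc32a1 lie near the limit of 3 counts.

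Promoter sequences are shown for 2 genes of each direction because short binding motifs in them could be counted over whole groups of genes. The sequences come from RefSeq on build GRCm38.p6 and span 250 bases before to 50 after the start of a transcript, and capitals mark the motif matches. The motifs searched on both strands were CNGGAAGT for ETS factors, AGATAA for GATA factors and AGGTGT for T-box factors, with reverse complements ACTTCCNG, TTATCT and ACACCT, and no match printed here overlaps another. The first pair, of Tal1 (chr4:115056176-115056475, plus strand) and Tek (chr4:94739039-94739338, plus strand), each holds a GATA match. The second pair, of Mesp2 (chr7:79810477-79810776, plus strand) and Pdgfra (chr5:75152001-75152300, plus strand), each holds a T-box match, and Mesp2 also holds an ETS match. Of 10 promoters found for 8 of the 12 largest increases, 2 held the GATA letters, 1 the T-box letters and 0 the ETS letters. Of 10 promoters found for 9 of the 12 largest decreases, 2 held the T-box letters, 2 the ETS letters and 0 the GATA letters. The 2 with GATA and the 2 with T-box letters in these counts are the ones printed, so they do not stand for their groups.
Tal1: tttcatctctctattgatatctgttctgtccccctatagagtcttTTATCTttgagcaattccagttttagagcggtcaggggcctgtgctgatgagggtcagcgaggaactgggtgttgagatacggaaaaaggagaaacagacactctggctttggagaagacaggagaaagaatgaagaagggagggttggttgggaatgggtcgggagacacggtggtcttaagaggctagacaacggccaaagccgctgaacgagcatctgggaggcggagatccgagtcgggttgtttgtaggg
Tek: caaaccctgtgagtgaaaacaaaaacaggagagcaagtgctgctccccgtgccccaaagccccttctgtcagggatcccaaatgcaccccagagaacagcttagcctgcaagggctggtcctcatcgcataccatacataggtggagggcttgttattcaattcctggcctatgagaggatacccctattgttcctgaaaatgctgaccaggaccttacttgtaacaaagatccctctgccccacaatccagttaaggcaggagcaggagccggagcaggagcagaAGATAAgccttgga
Mesp2: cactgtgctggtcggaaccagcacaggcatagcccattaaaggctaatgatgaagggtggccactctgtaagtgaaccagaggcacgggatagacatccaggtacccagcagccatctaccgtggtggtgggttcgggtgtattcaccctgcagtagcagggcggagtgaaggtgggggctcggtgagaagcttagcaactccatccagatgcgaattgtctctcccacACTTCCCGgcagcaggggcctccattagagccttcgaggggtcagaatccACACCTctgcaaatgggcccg
Pdgfra: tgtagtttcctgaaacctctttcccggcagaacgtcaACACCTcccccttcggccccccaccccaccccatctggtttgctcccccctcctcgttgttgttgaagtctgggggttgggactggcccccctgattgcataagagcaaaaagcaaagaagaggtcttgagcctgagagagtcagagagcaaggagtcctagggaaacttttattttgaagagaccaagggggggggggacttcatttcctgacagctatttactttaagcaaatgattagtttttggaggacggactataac
A second RefSeq promoter of Tal1 held none of these letters, and a match is a description of the sequence, not a site of binding.

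The shares of promoters with each motif follow as a description. Among 32851 promoters of all RefSeq genes, 9.53% held the ETS letters, 11.2% the GATA letters and 13.7% the T-box letters. For genes called at least 2-fold higher in SP cells, with 499 promoters of 380 genes, the shares were 6.41% for ETS, 10.4% for GATA and 12% for T-box. For genes called at least 2-fold lower, with 322 promoters of 251 genes, they were 3.73% for ETS, 5.9% for GATA and 16.5% for T-box. Over all called genes the shares were closer, at 8.82% of promoters of genes called higher and 6.74% of those called lower for ETS, 6.95% and 6.46% for GATA, and 11.3% and 12.5% for T-box. Promoters of all genes tested held the ETS letters in 12.9%, the GATA letters in 6.41% and the T-box letters in 11.1%. These shares were not tested, and promoters of 1 gene can share sequence.

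Endothelial genes were higher in SP cells almost throughout. Of 26 tested, 23 were called higher and the other 3 were not called, with a median log2 fold change of 2.30, where 9.08% of all genes tested were called higher and 6.76% lower at a median of -0.01. Those shares are the background for every list below. The lists and their members were chosen with earlier results of these data known, so their counts beside the background are a description and no test. Summed over the list, the level was 464 to 588 CPM in SP cells and 167 to 206 CPM in DP cells. Beyond the genes given above, Fli1, an ETS factor of endothelium and blood, had 41.3, 34.2 and 25.3 CPM in SP cells against 3.58, 3.83 and 4.11 CPM in DP cells (log2 fold change 3.13 ± 0.17, edgeR, adjusted p = 3.59e-06). Eng, an accessory receptor for TGF-beta and BMP ligands on endothelium, had 48.8, 38.4 and 42.5 CPM in SP cells and 13.6, 12 and 9.79 CPM in DP cells, a 3.65-fold increase. Both genes were without overlap between gates.

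The endothelial members that were not called were Robo4, Ushbp1 and Emcn. Ushbp1 averaged 0.476 CPM in SP cells, 0.267 CPM in DP cells and 8.27 CPM in the iEtv2 libraries. It was not tested in a fit of the 6 WT libraries alone. Robo4, a receptor of vascular stability, had 2.28, 4.03 and 3.78 CPM in SP cells and 3.2, 3.91 and 2.75 CPM in DP cells, and was not called (edgeR, adjusted p = 0.967). Flt1, the VEGF receptor that acts as a decoy in early vessels and was named after its values were seen, averaged 80.5 ± 8.9 CPM in SP cells and 43 ± 13 CPM in DP cells (SD, n = 3 each), a 1.88-fold increase (edgeR, adjusted p = 0.0166). Leaving out any 1 library kept 22 or 23 of the endothelial calls.

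Hematopoietic regulators changed as a group in the same direction. Of 19 listed, 18 were tested and 17 were called higher in SP cells, at a median log2 fold change of 2.80, the highest of the 25 lists. The summed level was 808 to 1011 CPM in SP cells and 349 to 365 CPM in DP cells. Gata2, a GATA factor of blood stem and progenitor cells, had 144, 124 and 146 CPM in SP cells and 17.6, 25 and 17.9 CPM in DP cells, a 6.85-fold increase. Lmo2, the LIM protein that bridges Tal1 and GATA factors, had 111, 97.3 and 124 CPM in SP cells and 12.8, 17.2 and 10.4 CPM in DP cells, an 8.21-fold increase. Runx1, the factor needed for definitive blood, had 56.9, 59.3 and 47.3 CPM in SP cells and 18.2, 20.1 and 18 CPM in DP cells, a 2.9-fold increase. These 3 were named after their values were seen, and none overlapped between gates.

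The member not called was Zfpm1, the GATA1 cofactor FOG1, at 313, 238 and 291 CPM in SP cells and 268, 242 and 267 CPM in DP cells (edgeR, adjusted p = 0.557). Between 15 and 17 hematopoietic calls held when 1 library was left out. Kit, the receptor for stem cell factor, was called at 1.9-fold higher in SP cells, but its call was lost in 5 of 15 alternatives, with adjusted p of 0.0811 without WT DP replicate 1, 0.0992 without WT DP replicate 3, 0.0811 without WT SP replicate 1, 0.103 without WT SP replicate 2 and 0.0633 in a fit of the 6 WT libraries alone. These p-values are edgeR's with Benjamini-Hochberg adjustment, as are all adjusted p-values given for libraries left out.

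Most globin genes of red cells were nearly absent. Of 8 primitive erythroid genes 3 passed the filter on low counts, and the globins Hba-x, Hba-a1 and Hbb-y were at or below 0.0849 CPM in all 6 libraries, under the limit of 3 counts. Hbb-bh1, an embryonic beta-type globin, had 5.02, 1.56 and 0.509 CPM in SP cells against 0.191, 0.0842 and 0 CPM in DP cells and was called (edgeR, adjusted p = 0.00737), with a DP level too low for a reliable fold. Alas2, which starts heme synthesis in red cells, had 3.41, 2.62 and 2.93 CPM in SP cells and 1.07, 1.01 and 1.08 CPM in DP cells, a 2.83-fold increase. Epor, the erythropoietin receptor, was not called, at 8.94 ± 1.11 CPM in SP cells and 7.43 ± 0.991 CPM in DP cells (SD, n = 3 each; edgeR, adjusted p = 0.381).

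Arterial and Notch genes were divided. Of 15 tested, 7 were called higher and 2 lower in SP cells, at a median of 0.30 on the log2 scale. Gja4, the arterial connexin 37, had 4.83, 3.31 and 3.78 CPM in SP cells against 0.457, 0.505 and 0.226 CPM in DP cells, a 9.79-fold increase. Dll4, the Notch ligand of arterial and tip cells, averaged 1.05 ± 0.155 CPM in SP cells and 0.168 ± 0.0515 CPM in DP cells (SD, n = 3 each), where the DP level was just above the limit of 3 counts. Efnb2, the arterial ephrin, had 144, 153 and 145 CPM in SP cells and 70.4, 74.4 and 62.6 CPM in DP cells, a 2.13-fold increase without overlap. Against these, Notch1 had 86.3, 84.3 and 62 CPM in SP cells and 110, 153 and 143 CPM in DP cells, a log2 fold change of -0.80 ± 0.14 (edgeR, adjusted p = 0.00353). Jag1, a ligand of Notch receptors, had 26.4, 36.3 and 27 CPM in SP cells and 61.3, 64.6 and 46.9 CPM in DP cells, a 1.93-fold decrease.

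Of 5 venous genes tested, 0 were called by edgeR, 2 higher and 1 lower passed an unadjusted p of 0.05, and DESeq2 called 2 higher. Nrp2, a co-receptor for VEGF-C on veins and lymphatics, had 271, 326 and 305 CPM in SP cells and 146, 212 and 197 CPM in DP cells (edgeR, adjusted p = 0.0664). Aplnr, the apelin receptor, had 188, 209 and 212 CPM in SP cells and 291, 293 and 315 CPM in DP cells (edgeR, adjusted p = 0.114), without overlap in either gene. Nrp2 was called in 5 of 15 alternatives, with adjusted p of 1.15e-13 to 0.151, and Aplnr in 4 of 15, with adjusted p of 7e-09 to 0.274, both in a fit of the 6 WT libraries alone and in one with no filter on low counts.

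**Figure D4:**
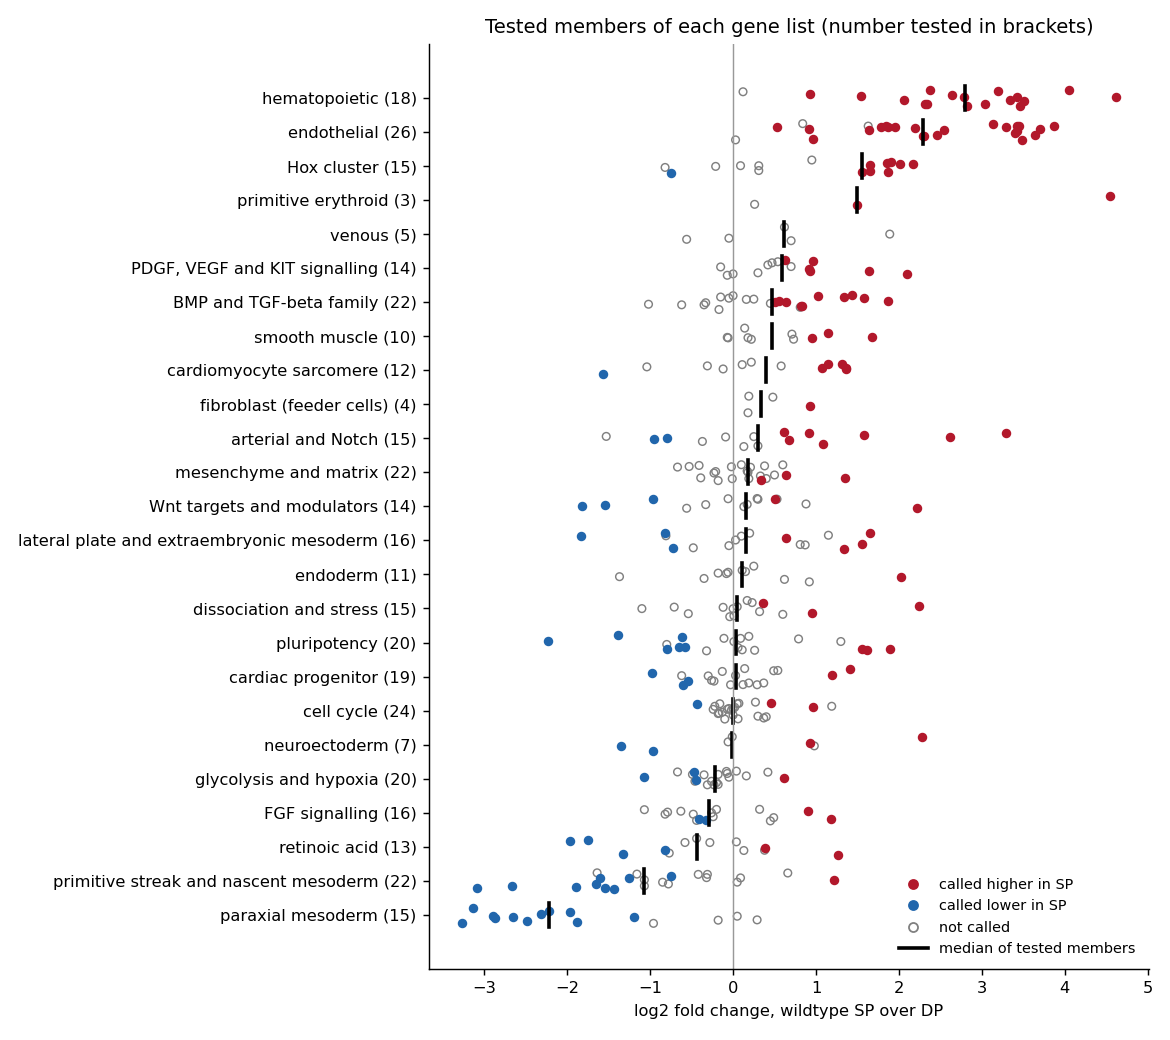
Log2 fold changes of SP over DP cells for the tested members of 25 gene lists, ordered by the median of each list (black bar), with called members filled (red higher, blue lower in SP cells) and others open. Hematopoietic and endothelial genes lie furthest to the right, at medians of 2.80 and 2.30, and streak and paraxial mesoderm genes furthest to the left, at -1.07 and -2.22.

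Ligands and receptors of the PDGF, VEGF and KIT pathways were called higher in 6 of 14 tested, at a median of 0.58, and the other 8 were not called. Pdgfb, the ligand that endothelium uses to recruit mural cells, had 38, 35.2 and 31.5 CPM in SP cells against 8.99, 10.2 and 5.05 CPM in DP cells, a 4.3-fold increase (log2 fold change 2.10 ± 0.21, edgeR, adjusted p = 0.000106). Pdgfa, a ligand of PDGFRalpha itself and named after its values were seen, averaged 25.2 ± 1.26 CPM in SP cells and 16.3 ± 2.22 CPM in DP cells, a 1.55-fold increase. Pdgfrb, the related receptor, was at 44.5 ± 6.33 CPM in SP cells and 46.7 ± 4.72 CPM in DP cells and was not called (SD, n = 3 each; edgeR, adjusted p = 0.795). Flt4, the VEGF-C receptor, had 25.9, 27.2 and 25.4 CPM in SP cells and 7.2, 9.76 and 8.16 CPM in DP cells, a 3.13-fold increase. Without WT DP replicate 3 only 3 members of this list stayed called higher.

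BMP and TGF-beta genes were called higher in 10 of 22 tested (45.5%, against 9.08% of all genes tested), at a median of 0.47, and the others were not called. Tgfb2, a TGF-beta ligand, had 154, 184 and 163 CPM in SP cells against 61.2, 76.5 and 47.9 CPM in DP cells, a 2.69-fold increase. Smad6 and Id3, a feedback inhibitor and a target of BMP signalling that were named after their values were seen, were also higher. Smad6 averaged 223 ± 20.5 CPM in SP cells and 110 ± 10.5 CPM in DP cells, and Id3 averaged 199 ± 25.8 CPM in SP cells and 112 ± 16.9 CPM in DP cells (SD, n = 3 each). Acvrl1, the endothelial receptor ALK1 for BMP ligands, averaged 8.45 ± 1.69 CPM in SP cells and 2.83 ± 0.319 CPM in DP cells, a 2.98-fold increase. Bmp4 had 201, 201 and 238 CPM in SP cells and 124, 128 and 114 CPM in DP cells and did not pass (edgeR, adjusted p = 0.0661), although its groups did not overlap. It was called in 4 of 15 alternatives, with adjusted p of 2e-16 to 0.178 over all 15. The fit of the 6 WT libraries alone was among those that called it (edgeR, adjusted p = 0.000606).

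Hox genes passed the filter in 15 of 31 cases, of which 8 were called higher in SP cells and 1 lower, at a median of 1.55. Most were weakly expressed, and the summed level of the cluster genes was 54.4 to 66.2 CPM in SP cells and 45.8 to 58.7 CPM in DP cells, which overlapped. Hoxd1 had 6.24, 5.52 and 5.99 CPM in SP cells against 1.52, 2.15 and 1.17 CPM in DP cells, a 3.65-fold increase (edgeR, adjusted p = 0.00153). Hoxb1, an anterior gene of the cluster, ran the other way at 18.9, 19.3 and 21.4 CPM in SP cells and 36.7, 35.1 and 28.7 CPM in DP cells (edgeR, adjusted p = 0.0317). That call was lost in 5 of 15 alternatives, with adjusted p of 0.069 without WT DP replicate 1, 0.0842 without WT DP replicate 2, and 0.102, 0.0703 and 0.0667 without WT SP replicates 1, 2 and 3. Without WT DP replicate 3 only 5 members were called higher.

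Paraxial mesoderm genes were the list with the lowest median, -2.22. Of 15 tested (19 listed), 11 were called lower in SP cells and the other 4 were not called, against 6.76% lower over all genes tested. Their summed level was 151 to 166 CPM in SP cells and 417 to 472 CPM in DP cells. Besides Mesp2, Dll1, Pcdh8, Pcdh19 and Foxc1 the called members included Tbx6, the T-box factor that commits cells to this fate, which was named after its values were seen. Tbx6 had 3.3, 5.74 and 6.11 CPM in SP cells against 21.2, 23.6 and 25.5 CPM in DP cells, a 4.64-fold decrease without overlap. Rspo3, a Wnt enhancer on the same list, had 94.5, 78.7 and 91.9 CPM in SP cells and 77.2, 73.3 and 66 CPM in DP cells and was not called (edgeR, adjusted p = 0.332), though it was in 2 of 15 alternatives, with adjusted p of 0.0345 to 0.588. Leaving out 1 library gave 10 to 12 calls.

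Primitive streak and nascent mesoderm genes were lower in SP cells in part. Of 22 tested, 9 were called lower and 1 higher, at a median of -1.07, and the summed level was 1360 to 2058 CPM in SP cells and 3516 to 5065 CPM in DP cells. Tdgf1, the Nodal co-receptor Cripto, had 239, 369 and 382 CPM in SP cells against 854, 1044 and 1199 CPM in DP cells, a 3.13-fold decrease (edgeR, adjusted p = 0.00183), with 87.3% of its transcript windows unique. Mesp1, which marks the earliest heart-forming mesoderm, had 50.5, 49.4 and 73.7 CPM in SP cells and 241, 185 and 218 CPM in DP cells, a 3.71-fold decrease without overlap (edgeR, adjusted p = 0.0147). Its call was lost without WT SP replicate 1 (adjusted p = 0.0646) and in DESeq2 (adjusted p = 0.123), 2 of 15 alternatives.

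The T-box factor Eomes, which acts upstream of Mesp1, had 253, 364 and 420 CPM in SP cells and 606, 701 and 875 CPM in DP cells and did not pass (edgeR, adjusted p = 0.0953), although its groups did not overlap. Mixl1, a homeobox factor of the streak, had 140, 198 and 240 CPM in SP cells and 258, 339 and 448 CPM in DP cells (edgeR, adjusted p = 0.347). Eomes was called in 4 of 15 alternatives, with adjusted p of 1.3e-33 to 0.268, and Mixl1 in 3 of 15, with adjusted p of 3.9e-20 to 0.625. A fit of the 6 WT libraries alone and a fit with no filter on low counts called both. Both genes were lower in replicate 1 than in replicates 2 and 3 on both sides of the gate. The member called higher was Cdx4, a caudal-type factor of posterior mesoderm. Cdx4 had 4.4, 4.26 and 3.14 CPM in SP cells and 1.56, 2.19 and 1.31 CPM in DP cells (edgeR, adjusted p = 0.0175). Its call was lost in 3 of 15 alternatives, with adjusted p of 0.0677 without WT DP replicate 3, 0.0685 without WT SP replicate 1 and 0.0506 without WT SP replicate 2, and 2 members were called higher without WT DP replicate 2.

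Wnt, FGF and retinoic acid genes contained members called in each direction. Among Wnt targets and modulators, 2 of 14 were called higher and 3 lower. Lgr5, a receptor for R-spondins, had 46, 51.8 and 41.5 CPM in SP cells against 9.07, 12.4 and 8.48 CPM in DP cells, a 4.65-fold increase (log2 fold change 2.22 ± 0.18, edgeR, adjusted p = 3.55e-05). Sp5, a direct Wnt target, had 29.5, 37.4 and 44 CPM in SP cells and 95.1, 104 and 125 CPM in DP cells, a 2.93-fold decrease. Lef1, a nuclear effector of Wnt, had 57.8, 57.1 and 64.6 CPM in SP cells and 126, 108 and 118 CPM in DP cells, with 13.7% of its exonic bases under an antisense gene. Sfrp1, a secreted Wnt antagonist, averaged 13.9 ± 5.26 CPM in SP cells and 49.1 ± 13.5 CPM in DP cells (SD, n = 3 each), a 3.54-fold decrease. Without WT SP replicate 3 only 1 Wnt gene was called higher.

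In the FGF list 2 of 16 were called higher and 2 lower, and the receptors differed in direction. Fgfr1 had 192, 189 and 182 CPM in SP cells and 237, 235 and 235 CPM in DP cells, a small but tight decrease (log2 fold change -0.33 ± 0.06, edgeR, adjusted p = 0.00345). Fgfr2 averaged 45.7 ± 6.76 CPM in SP cells and 24.4 ± 6.29 CPM in DP cells, and Fgfr3 averaged 11.8 ± 1.41 CPM in SP cells and 5.17 ± 1.39 CPM in DP cells (SD, n = 3 each), both called higher. Calls lower in this list numbered 6 without WT DP replicate 1 and 1 without WT DP replicate 2, WT DP replicate 3, WT SP replicate 1 or WT SP replicate 2, and 4 when mitochondrial and ribosomal RNA genes were left out. In the retinoic acid list 2 of 13 were called higher and 4 lower, but the calls higher numbered 0 without WT DP replicate 3 or WT SP replicate 2 and 1 without any of the other 4 WT libraries. Aldh1a2, the enzyme that makes retinoic acid in the embryo, had 2.75, 2.62 and 2 CPM in SP cells against 13.5, 9.09 and 6.32 CPM in DP cells, a 3.92-fold decrease. Crabp1, which binds retinoic acid in the cytoplasm, had 23.2, 14.3 and 18.8 CPM in SP cells and 91.2, 49.4 and 49.4 CPM in DP cells, a 3.37-fold decrease.

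Cardiac progenitor genes showed no common direction, with 2 of 19 called higher (10.5%) and 3 lower (15.8%) at a median of 0.03, against 9.08% higher and 6.76% lower over all genes tested. Gata4, a GATA factor of heart and endoderm, had 189, 202 and 231 CPM in SP cells against 300, 308 and 336 CPM in DP cells, a 1.52-fold decrease (edgeR, adjusted p = 0.00494). Isl1, a factor of the second heart field, had 12.5, 13.3 and 14.5 CPM in SP cells and 28.1, 25.2 and 26 CPM in DP cells, a 1.97-fold decrease. Nkx2-5, an early heart factor, ran the other way at 6.28, 5.02 and 7.81 CPM in SP cells and 2.97, 2.1 and 2.08 CPM in DP cells, a 2.66-fold increase (edgeR, adjusted p = 0.00395). Hand1, a helix-loop-helix factor of heart and extraembryonic mesoderm, was not called at 489 ± 20.3 CPM in SP cells and 336 ± 39.5 CPM in DP cells (SD, n = 3 each; edgeR, adjusted p = 0.27). Hand1 was called in 3 of 15 alternatives, with adjusted p of 2.35e-08 to 0.516 over all 15. The fit of the 6 WT libraries alone was among those that called it (edgeR, adjusted p = 0.00563).

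Sarcomere genes were called higher in 5 of 12 and lower in 1 of 12. Their summed level ran the other way, at 62.3 to 67.4 CPM in SP cells and 72.7 to 111 CPM in DP cells. Tnnc1, the cardiac and slow muscle troponin C, had 7.14, 7.76 and 6.66 CPM in SP cells against 3.05, 3.07 and 2.26 CPM in DP cells, a 2.57-fold increase. The member called lower was Myl7, the atrial light chain and among the first contractile genes of heart precursors. It had 21.4, 16.8 and 22.2 CPM in SP cells and 82.2, 43 and 53.5 CPM in DP cells, a 2.96-fold decrease without overlap (edgeR, adjusted p = 0.000685). Only 3 sarcomere genes were called higher without WT DP replicate 1, WT DP replicate 3 or WT SP replicate 2, and 2 were called lower without WT DP replicate 1. Of 10 smooth muscle genes 3 were called higher, among them Tpm1 at 732 ± 64.5 CPM in SP cells and 379 ± 62.5 CPM in DP cells (SD, n = 3 each) and Myl9 at 15.7 ± 3.57 CPM in SP cells and 4.92 ± 1.14 CPM in DP cells.

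Lateral plate and extraembryonic mesoderm genes were called higher in 4 of 16 and lower in 3 of 16, at a median of 0.15. Ahnak, a large scaffold protein, had 395, 554 and 356 CPM in SP cells and 155, 229 and 132 CPM in DP cells, a 2.52-fold increase. Irx3, an Iroquois factor, had 4.87, 5.78 and 4.84 CPM in SP cells and 28.7, 16.5 and 10 CPM in DP cells, a 3.57-fold decrease. Twist1, a regulator of mesenchyme, had 14.2, 13.8 and 16.5 CPM in SP cells and 29.5, 25.7 and 23.2 CPM in DP cells, a 1.77-fold decrease. Calls higher fell to 2 without WT DP replicate 2, WT DP replicate 3 or WT SP replicate 3.

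Mesenchyme and matrix genes were mostly not called, with 3 of 22 higher (13.6%, against 9.08% of all genes tested) at a median of 0.18. Col1a1, a chain of type I collagen, had 235, 218 and 169 CPM in SP cells and 99.2, 106 and 38.9 CPM in DP cells, a 2.54-fold increase (edgeR, adjusted p = 0.0159) that was lost without WT SP replicate 1 (adjusted p = 0.0541). Only 1 member was called higher without that library. Markers of fibroblasts, the feeder cells of the stem cell culture, were measured beside these. Of 11 listed, 4 were tested and 1 was called higher, the fibrillin gene Fbn1. Their summed level was 66 to 103 CPM in SP cells and 39.2 to 50.2 CPM in DP cells, and Lum, S100a4 and Fap were at 0 in all 6 libraries. The part of feeder cells in the mesenchyme values was not tested.

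Markers of other cells the gates could hold were few or divided. Of 20 pluripotency genes 3 were called higher and 6 lower. Otx2, a factor of epiblast and anterior neural cells, had 12.2, 21.8 and 12.9 CPM in SP cells against 64.8, 66.8 and 89.6 CPM in DP cells, a 4.7-fold decrease (edgeR, adjusted p = 0.00021). Esrrb, a nuclear receptor of naive stem cells and extraembryonic ectoderm, had 6.32, 10.8 and 6.58 CPM in SP cells and 1.45, 3.53 and 1.4 CPM in DP cells, a 3.71-fold increase. Calls lower numbered 2 without WT DP replicate 2, WT SP replicate 1 or WT SP replicate 3, and calls higher numbered 1 without WT DP replicate 1 or WT SP replicate 2. Summed pluripotency levels were 1309 to 1596 CPM in SP cells and 1592 to 1805 CPM in DP cells.

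Endoderm genes had 1 of 11 called higher, with a summed level of 178 to 275 CPM in SP cells inside the DP range of 107 to 284 CPM. That call was lost without WT DP replicate 2, WT DP replicate 3, WT SP replicate 1 or WT SP replicate 3. Neuroectoderm genes had 2 of 7 called higher and 2 lower, and 1 higher without WT DP replicate 1, WT DP replicate 3 or WT SP replicate 1. Sox1, a member not called, averaged 0.28 CPM in SP cells and 0.141 CPM in DP cells. It was not tested in a fit of the 6 WT libraries alone. Nes, an intermediate filament of neural and vascular progenitors, had 95.3, 122 and 115 CPM in SP cells and 51.6, 76 and 47.5 CPM in DP cells. Zic2, a zinc finger factor of neural ectoderm and nascent mesoderm, had 49.8, 75 and 78.1 CPM in SP cells and 139, 172 and 205 CPM in DP cells, a 2.54-fold decrease. The part of such cells in the gate results was not tested.

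Proliferation genes were mostly not called. Of 24 cell cycle genes, 2 were called higher and 1 lower at a median of 0.00, and the summed level was 5456 to 5617 CPM in SP cells and 5623 to 5705 CPM in DP cells. Mki67 had 657, 707 and 588 CPM in SP cells and 563, 734 and 755 CPM in DP cells (edgeR, adjusted p = 0.725). Cdkn1a, the inhibitor p21, had 26.6, 24.8 and 25.3 CPM in SP cells and 12.8, 16.5 and 9.79 CPM in DP cells, a 1.96-fold increase (edgeR, adjusted p = 0.00149).

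Of 20 glycolysis and hypoxia genes 1 was called higher and 3 lower, at a median of -0.22. Pfkl, a phosphofructokinase, had 297, 302 and 366 CPM in SP cells and 445, 439 and 451 CPM in DP cells, a 1.38-fold decrease (edgeR, adjusted p = 0.00626). Calls lower numbered 5 without WT DP replicate 1, and the call higher was lost without WT DP replicate 3, WT SP replicate 1 or WT SP replicate 2. Of 15 dissociation and stress genes 3 were called higher. Atf3, a stress-induced factor, had 9.42, 8.56 and 7.9 CPM in SP cells against 1.52, 2.44 and 1.49 CPM in DP cells, a 4.74-fold increase (log2 fold change 2.24 ± 0.18, edgeR, adjusted p = 3.55e-05). Hsp90aa1 was not called, at 1684 ± 13.4 CPM in SP cells and 1623 ± 12.4 CPM in DP cells (SD, n = 3 each; edgeR, adjusted p = 0.697), and only 41.7% of its transcript windows were unique.

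The reporter line carried the same gates in other libraries, so the WT genes could be followed in samples that the WT calls did not use. Its libraries had 12.2 to 14.4% of their counts on pseudogenes, against 0.549 to 0.636% in the WT libraries, so changes and not levels are set side by side. Averaged over tdTomato-positive and tdTomato-negative cells, 3608 of 17690 genes (20.4%) were called in SP over DP cells of that line, 1844 higher (10.4%) and 1764 lower (9.97%). Of the 2527 WT calls tested there, 2422 (95.8%) had the same sign, where 69.3% of all 15354 genes tested in both did. In the same direction 1437 were called (56.9%, against 18.6% over all genes tested in both), and 3 were called in the opposite direction. The higher calls shared 870 genes, 60.7% of the WT list and 51.5% of the reporter-line list, and the lower calls shared 567, 51.9% and 36.7% of these lists. Over the 2527 genes the log2 fold changes had a Pearson correlation of 0.901, across genes that are not independent replicates, and the median size of change was 0.67 in WT and 0.30 in the reporter line. These genes were selected for their WT change, and over all 15354 genes tested in both the correlation was 0.762 and the medians 0.19 and 0.13.

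The Etv2 reporter itself gives a further reading of the WT genes. Between tdTomato-positive and tdTomato-negative cells, averaged over both gates, 7342 of 17690 genes (41.5%) were called, 3786 higher (21.4%) and 3556 lower (20.1%). With upper-quartile scaling the balance turned, to 3170 higher and 4162 lower. Of the 2527 WT calls, 2426 (96%) had the same sign with the reporter as in WT SP over DP cells, against 77.5% of all genes tested in both. In the same direction 2090 were called (82.7%, against 40.9%), and 14 were called in the opposite direction. Tal1 had a log2 fold change of 3.51 across the WT gate, 3.60 across the reporter-line gate and 3.65 with the Etv2 reporter. Mesp2 had -2.89, -2.00 and -3.24 in these comparisons, and Pdgfra, sorted on in both gates but not for the reporter, had -2.99, -2.15 and -0.61. Both reporter-line readings came from the same 12 libraries, so they are not independent of each other.

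**Figure D5:**
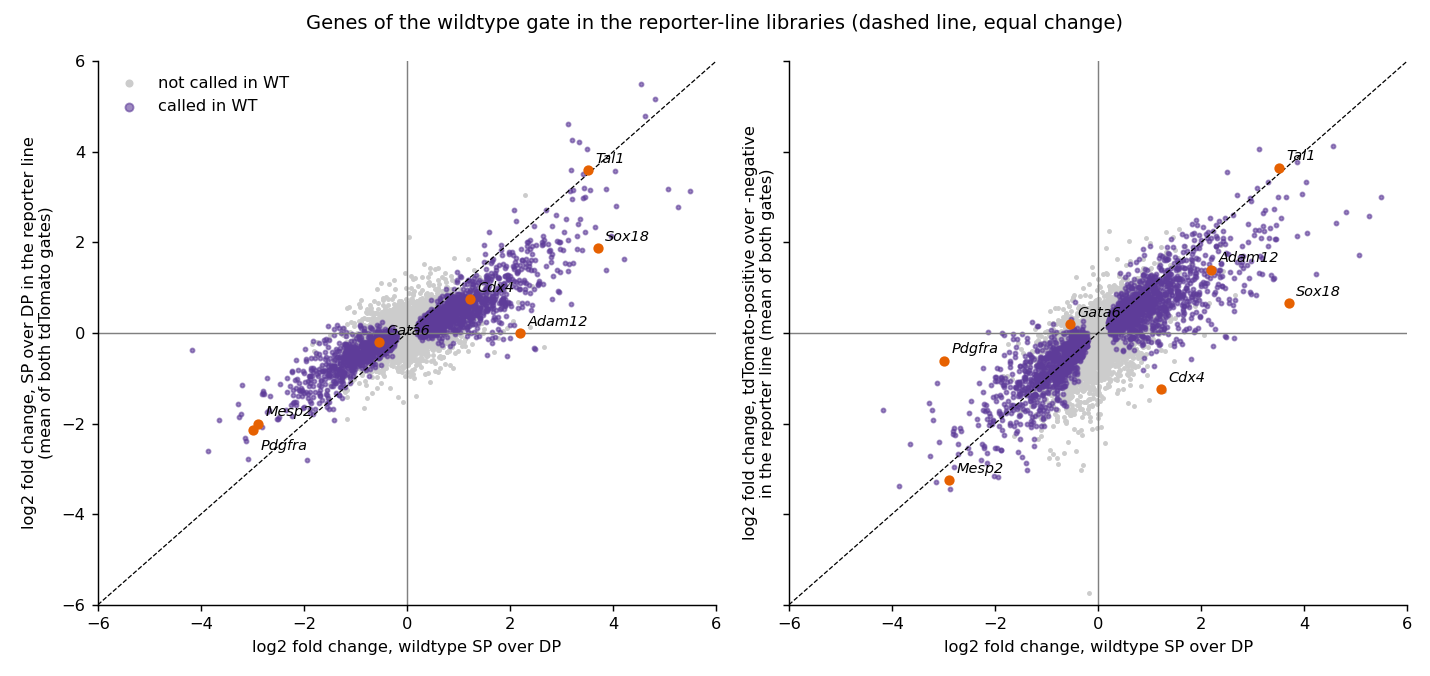
Log2 fold changes of SP over DP cells in WT (horizontal) against those of SP over DP cells in the reporter line (left, vertical) and of tdTomato-positive over tdTomato-negative cells in the reporter line (right, vertical), 1 point per gene tested in both, purple where called in WT; the dashed line marks equal change. Most purple points share the sign of the WT change, and Cdx4 and Gata6 lie on the opposite side in the right panel.

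The 14 genes that were called in opposite directions by the WT gate and the Etv2 reporter were 10 higher and 4 lower in WT SP cells. They were chosen for that difference, so their values are a description. Cdx4 had the largest opposite values, 1.22 ± 0.30 across the WT gate and -1.24 ± 0.16 with the reporter on the log2 scale. Gata6, a GATA factor of heart and endoderm, had 96.2, 108 and 115 CPM in WT SP cells and 136, 151 and 178 CPM in WT DP cells (log2 fold change -0.54 ± 0.10), against 0.19 ± 0.04 with the reporter. Cxcl12, a chemokine of endothelial and blood progenitors, had 0.89 ± 0.27 across the WT gate and -0.55 ± 0.18 with the reporter. Gas7, a membrane and actin regulator, had 0.88 ± 0.13 and -0.82 ± 0.15.

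A set of 27 genes was called at least 2-fold across the WT gate but not called with the Etv2 reporter. Each had at least 5 CPM in one WT group, and lack of a call does not show that it did not differ with the reporter. The symbols left out of the largest changes, and genes not tested with the reporter, were left out here too. For scale, WT calls of at least 2-fold numbered 550 higher and 338 lower before the 5 CPM limit. Over all sizes of change 423 of 2527 WT calls tested in both were not called with the reporter, against 8460 of all 15354 genes. The 27 genes were picked from their values, so no test is given. Sox18 was the strongest, at 3.70 ± 0.31 across the WT gate and 0.66 ± 0.32 with the reporter (edgeR, adjusted p = 0.114). That reporter value averages gates that differed. In SP cells of the reporter line Sox18 averaged 2.39 CPM with tdTomato and 0.676 CPM without it. In DP cells of that line it averaged 0.293 CPM with tdTomato and 0.409 CPM without it. St8sia1, a sialyltransferase of gangliosides, had 22.2, 25.8 and 20.1 CPM in WT SP cells and 4.84, 7.24 and 5.14 CPM in WT DP cells, against a reporter value of 0.38 ± 0.21 on the log2 scale. Bcl6b, a zinc finger repressor found in endothelium, had 6.91, 6.7 and 6.37 CPM in WT SP cells and 1.64, 2.86 and 2.48 CPM in WT DP cells, against -0.14 ± 0.16. Among the decreases, Lmo1, a LIM-only protein, had 8.16, 9.36 and 14.1 CPM in WT SP cells and 27.8, 32.3 and 40.1 CPM in WT DP cells, against -0.13 ± 0.25, and Myl7 had -1.57 ± 0.21 across the gate against -0.13 ± 0.12.

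Whether the WT gate differed from the reporter-line gate was tested directly, in a model of all 21 libraries with an interaction between line and gate. Of 18766 genes, 90 (0.48%) were called, 71 with a positive difference of WT minus reporter line (0.378%) and 19 with a negative one (0.101%). This count was unstable, at 6 without WT SP replicate 1, 7 without WT DP replicate 3, 150 without WT SP replicate 2 and 300 without WT DP replicate 1, and 16 or 37 without WT SP replicate 3 or WT DP replicate 2. Eng was among the called genes under all 24 alternatives, with a log2 fold change of 1.87 ± 0.12 across the WT gate against 0.71 ± 0.08 across the reporter-line gate (difference 1.16 ± 0.15, edgeR, adjusted p = 0.00184). Fli1, at 3.13 ± 0.17 in WT and 1.36 ± 0.22 in the reporter line (difference 1.78 ± 0.34, edgeR, adjusted p = 0.0299), kept its call in 18 of 24 alternatives. The WT cells were not divided by an Etv2 reporter and the libraries of the 2 lines differ in their share of counts on pseudogenes, so line, sort and library set cannot be told apart here.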

How the data were processed

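RNA of sorted day 4 embryoid body cells was sequenced from 21 libraries with a stranded total RNA kit, per the labels' protocols. The authors deposited raw counts per gene for each library. The counter featureCounts and build mm10 are named per the submitters' processing notes, but the files of the WT and iEtv2 libraries also hold summary lines of the kind that STAR writes, so which tool counted them is unsure. The aligner, annotation and strand setting are not given in the sources used here, and without the strand setting reads of antisense partners could not be told apart. Those summary lines, 22.6 to 25.1% of the total in the WT libraries, entered neither library sizes nor tests.

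Gene names came from GENCODE M21 for 55227 of 55487 IDs, and promoters from RefSeq on GRCm38.p6. The WT gate was fitted with edgeR's quasi-likelihood test (edgeR 4.0.16 and limma 3.58.1 in R 4.3.3) on the 9 WT and iEtv2 libraries, which share 1 estimate of the spread, after TMM scaling and edgeR's filter on low counts. Calls are at a Benjamini-Hochberg adjusted p below 0.05 over all genes tested. The reporter line was fitted alone, and the difference between gates on all 21 libraries. CPM are TMM-scaled, and SEs were derived from each log2 fold change and its F statistic as |log2 fold change|/√F. DESeq2 1.42.0, other scalings, filters, library subsets, a replicate block and leaving out each library were alternatives. Fits were tested on simulated data. Tables and plots used Python 3.11.15 with numpy 2.4.6, pandas 2.3.3 and matplotlib 3.10.9.

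The 25 gene lists (408 symbols, all matched) and the members were chosen with earlier results of these data known. Genes named were Kdr, Pdgfra, Etv2 and T. To these came the called genes with the 12 strongest increases and the 12 strongest decreases, with at least 5 CPM in one group and no overlap, without small RNA, predicted or mitochondrial genes or those of ribosomal proteins. Per list they were up to 4 called members with the largest change, any member called against the majority and the 2 most abundant members not called. The 3 largest differences between the gates in each direction were named too. Of the 12 strongest decreases 1 is not reported here. Of 302 named or listed genes, 12 had fewer than 90% of their 50-base transcript windows unique and 2 of these fewer than 50%.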

Additional observations from a re-analysis of the deposited data

Results flagged for a closer look

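For 10 named genes the change across the WT gate differed from that across the reporter-line gate by a test of the difference itself (edgeR's quasi-likelihood interaction test with Benjamini-Hochberg adjustment, 3 WT libraries and 6 reporter-line libraries per gate). Over all 18766 genes tested 90 (0.48%) were called. Adam12, Slc30a2, Fli1, Pcdh19, Cacna2d2 and Pxylp1 were picked as the 3 largest called differences in each direction of this same test. Their passing was therefore fixed by the choice, and the count of 10 is no result about the named genes. Values are log2 fold changes of SP over DP cells, and differences are WT minus reporter line with SE.

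Of the endothelial genes, Eng differed by 1.16 ± 0.15 (adjusted p = 0.00184) and kept its call in 24 of 24 alternatives. Fli1 differed by 1.78 ± 0.34 (adjusted p = 0.0299) and lost its call in 6 of 24, with adjusted p of up to 0.106. Flt4 stood at 1.64 ± 0.13 in WT and 0.81 ± 0.10 in the reporter line, a difference of 0.84 ± 0.16 (adjusted p = 0.0346) that was lost in 9 of 24, with adjusted p of up to 0.12. The stress-induced factor Atf3 stood at 2.24 ± 0.18 in WT and 0.65 ± 0.16 in the reporter line, a difference of 1.60 ± 0.26 (adjusted p = 0.0113) lost in 2 of 24, with adjusted p of up to 0.0677. Jund, a member of the AP-1 family, stood at 0.95 ± 0.13 in WT and 0.22 ± 0.08 in the reporter line, a difference of 0.73 ± 0.16 (adjusted p = 0.0405) lost in 14 of 24, with adjusted p of up to 0.174, and 52.6% of its exonic bases lie under an antisense gene.

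Adam12, a metalloprotease, stood at 2.20 ± 0.21 in WT and 0.00 ± 0.28 in the reporter line, a difference of 2.19 ± 0.48 (adjusted p = 0.0455) lost in 14 of 24, with adjusted p of up to 0.176. Slc30a2, a zinc transporter, stood at 2.40 ± 0.41 in WT and 0.50 ± 0.16 in the reporter line, a difference of 1.91 ± 0.42 (adjusted p = 0.0487) lost in 18 of 24, with adjusted p of up to 0.209. Among genes lower in WT SP cells, Pcdh19 stood at -3.27 ± 0.23 in WT and -1.86 ± 0.17 in the reporter line, a difference of -1.41 ± 0.29 (adjusted p = 0.039) lost in 14 of 24, with adjusted p of up to 0.132. Cacna2d2, a calcium channel subunit, stood at -0.92 ± 0.25 in WT and 0.18 ± 0.06 in the reporter line, a difference of -1.09 ± 0.23 (adjusted p = 0.039) lost in 14 of 24, with adjusted p of up to 0.17. Pxylp1, a phosphatase of proteoglycan linkers, stood at -1.65 ± 0.16 in WT and -0.70 ± 0.11 in the reporter line, a difference of -0.95 ± 0.19 (adjusted p = 0.0346) lost in 10 of 24, with adjusted p of up to 0.114. The part of line, sort and library set in these differences was not tested.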

How the results depend on the processing

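Of 107 called genes named by the rule, 82 were called under every one of the 15 alternatives that tested them, and none changed direction. Hbb-bh1, 1 of the 82, was tested in 14 of the 15. Of 46 named genes not called, 15 were called with no filter on low counts, 8 with a replicate block and 1 in DESeq2, and of the 44 tested there 10 were called in the 6 WT libraries alone and 15 in those with the block. The 2580 WT gate calls ranged from 1509 to 2683 when 1 library was left out, and the WT gate calls of at least 2-fold, 888 with all libraries, from 670 to 903. Calls shared with the Etv2 reporter effect, 2090, ranged from 1277 to 2179, and those shared with the reporter-line gate, 1437, from 1019 to 1336. The 90 WT gate minus reporter-line gate calls became 909 with no filter on low counts, 439 in DESeq2 and 502 with a replicate block within each set, and ranged from 6 to 300 when 1 library was left out. The cause was not tested. The groups share replicate numbers, but same-numbered WT libraries deviated together by correlations of 0.304, 0.342 and 0.0916, and the last is below the 0.1 required of every pair, so the numbers were not taken to pair them. Each WT library correlated best with its own number, which is a hint from the data and not from the design. With the replicate block the WT gate calls numbered 3242, and 3480 with the block on the 6 WT libraries alone. With 3 libraries per group, genes near the limit of 3 counts have rough fold changes.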

Other observations

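Some gene families were chosen after their values were seen and are described only, and a few of their members are also in the lists above. Of 8 Iroquois and Zic factors tested, 7 were called lower in WT SP than in WT DP cells, at a median log2 fold change of -1.47, where 6.76% of all genes tested were called lower. Irx5 had 0.393, 0.799 and 0.467 CPM in SP cells and 6.02, 3.66 and 2.12 CPM in DP cells (edgeR, adjusted p = 0.00187). The groups did not overlap.

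Guidance genes were called in both directions. Of 7 Slit and Robo genes, 4 were called lower and the other 3 were not called, and of 20 ephrins and Eph receptors 7 were called lower and 2 higher, where 6.76% of all genes tested were called lower and 9.08% higher. Slit1 had 13.4, 13.7 and 12.7 CPM in SP cells and 66, 50.8 and 55.6 CPM in DP cells (edgeR, adjusted p = 0.0005). Robo1 had 99, 123 and 101 CPM in SP cells and 240, 291 and 332 CPM in DP cells (edgeR, adjusted p = 7.56e-05).

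Of 10 laminins tested 4 were called higher and 1 lower, and of 19 integrins 6 were called higher and 2 lower. Over all genes tested 9.08% were called higher and 6.76% lower. Lama4, a laminin chain of vessel basement membrane, had 67.5, 58.8 and 54.8 CPM in SP cells and 22.9, 21.5 and 13.2 CPM in DP cells (edgeR, adjusted p = 0.000826). Lama1, the chain of early embryonic basement membrane, had a log2 fold change of -1.01 ± 0.12 (edgeR, adjusted p = 0.000331). Itga8, 1 of the 2 integrins called lower, had 12.5, 18.2 and 12.4 CPM in SP cells and 50, 66.2 and 77.2 CPM in DP cells (edgeR, adjusted p = 0.000409).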
